A study of Homo sapiens with 8 samples.

Results

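BHLHE40, BHLHE41 and 8 core genes of the circadian clock (PER1, PER2, PER3, CRY1, CRY2, CLOCK, ARNTL and NR1D1) were followed through an acute hypoxia experiment measured by PRO-seq, which counts RNA polymerases engaged on the DNA instead of accumulated RNA. The members were all rows of the gene body and transcription start site (TSS) tables that carry these symbols, 10 of 23193 genes. HCT116, an established human colorectal carcinoma cell line, was compared as wild-type (WT) cells and as a HIF1A-/- derivative, in which the HIF1A locus had been disrupted by homologous recombination. Each genotype was kept in normoxia or exposed to hypoxia (1% O2) for 90 min, and DMSO vehicle was present in all 4 groups, normoxic controls included. There were 2 libraries per group from independent cultures, 8 in all. One knockout line represented the HIF1A-/- genotype, so a difference between the genotypes cannot be told apart from any other difference between these lines.

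In the circadian clock, CLOCK and ARNTL (also called BMAL1) bind E-box sequences as a heterodimer and activate the PER and CRY genes, whose proteins return to inhibit that heterodimer. BHLHE40 and BHLHE41 (DEC1 and DEC2) are basic helix-loop-helix repressors that compete for the same E-boxes, and NR1D1 (REV-ERB alpha) is a heme-binding nuclear receptor that represses ARNTL. HIF1A, the oxygen-regulated transcription factor, is related to CLOCK in its basic helix-loop-helix and PAS domains, pairs with a paralog of ARNTL, and recognises a core that is contained in one form of the E-box; BHLHE40 and BHLHE41 are known hypoxia-inducible genes.

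Total gene body reads ran from 18125234 to 23622392 per library and TSS region reads from 2783581 to 5966348. The TSS share of all counted reads was 17.4% to 20.2% in WT libraries and 11.2% to 17.4% in HIF1A-/- libraries, with replicate 1 of either HIF1A-/- group the lowest, at 11.2% in normoxia and 12.9% in hypoxia. Of the markers of colorectal epithelium (EPCAM, CDH1, KRT8, KRT18, KRT19), 5 of 5 were transcribed, with a summed gene body level of 100.3 to 171 RPKM (CPM per kilobase of gene body, where CPM is the read count scaled to the library's gene body total), whereas markers of leukocytes, endothelium, fibroblasts, hepatocytes and muscle summed to 0.0736 to 0.200 RPKM. HIF1A itself had gene body levels of 134 and 150.1 CPM in WT normoxia, 129 and 164 CPM in WT hypoxia, 157 and 141 CPM in HIF1A-/- normoxia, and 172 and 166 CPM in HIF1A-/- hypoxia. The lesion removes a short stretch of the gene, so reads over the HIF1A gene body do not check the genotype labels.

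Upstream sequence is shown for the 4 members whose gene body signal rose in WT hypoxia under edgeR with or without a replicate term. They were chosen by this response and not by the letters in their promoters. The promoters of all members were searched for letters that the clock factors and HIF1A are known to recognise. Each window is the 250 bases before the TSS that the tables use, read 5′ to 3′ on the gene's strand from the GRCh37 genome. The BHLHE40 window is chr3:5020846-5021095 on the plus strand and lies in an intron of BHLHE40-AS1, the BHLHE41 window is chr12:26278004-26278253 on the minus strand, overlaps the gene SSPN and an exon of the unnamed gene ENSG00000256894, the PER1 window is chr17:8055754-8056003 on the minus strand in intronic sequence of PER1 transcripts with earlier starts, and the NR1D1 window is chr17:38256979-38257228 on the minus strand with no annotated gene. Capitals mark matches on either strand to the hypoxia response core ACGTG, the E-box CACGTG, which contains that core on both strands, or the REV-ERB and ROR receptor element AGGTCA.
BHLHE40: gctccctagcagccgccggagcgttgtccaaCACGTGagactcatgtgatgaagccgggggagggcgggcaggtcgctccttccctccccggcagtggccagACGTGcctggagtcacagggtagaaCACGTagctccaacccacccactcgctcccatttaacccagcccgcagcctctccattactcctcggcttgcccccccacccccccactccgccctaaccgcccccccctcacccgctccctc
BHLHE41: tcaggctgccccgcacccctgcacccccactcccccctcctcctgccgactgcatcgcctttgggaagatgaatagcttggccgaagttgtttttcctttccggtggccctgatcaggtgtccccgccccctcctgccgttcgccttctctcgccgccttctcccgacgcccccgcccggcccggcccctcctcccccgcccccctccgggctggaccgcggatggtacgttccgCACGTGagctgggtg
PER1: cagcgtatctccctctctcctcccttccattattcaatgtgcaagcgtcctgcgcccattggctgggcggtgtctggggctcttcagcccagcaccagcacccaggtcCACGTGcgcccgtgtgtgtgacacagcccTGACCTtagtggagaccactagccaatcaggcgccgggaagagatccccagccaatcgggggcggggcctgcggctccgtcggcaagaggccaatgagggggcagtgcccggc
NR1D1: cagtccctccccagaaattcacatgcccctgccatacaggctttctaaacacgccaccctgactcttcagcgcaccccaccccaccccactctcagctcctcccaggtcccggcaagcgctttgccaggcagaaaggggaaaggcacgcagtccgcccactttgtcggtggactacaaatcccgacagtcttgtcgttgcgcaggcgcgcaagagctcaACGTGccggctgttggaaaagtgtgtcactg

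BHLHE40 held the E-box once and 2 further copies of the core outside it. BHLHE41 held an E-box that started 15 bases before the TSS. PER1 held an E-box and, 113 bases before the TSS, the receptor element on the strand opposite to the gene. NR1D1 held the core once, 31 bases before the TSS, and no E-box. Among the other members PER2 held the core at 2 places and the D-box TTANGTAA, and CRY2 held the core once, while the windows of PER3, CRY1, CLOCK and ARNTL held none of the 4 motifs. The core was present in 6 of 10 members and in 19% of the 23190 windows searched, the E-box in 3 of 10 and 6.65%, the receptor element in 1 of 10 and 12.1%, and the D-box in 1 of 10 and 1.83%. These matches describe letters in the window and not binding. For NR1D1 and CRY1 the TSS used lies 136 and 308 bases from the nearest annotated start of the gene.

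All 10 members passed the filter on low counts, a CPM above 0.5 in at least 2 libraries, in the gene body and the TSS tables. On the per-length scale, NR1D1 and BHLHE40 had the highest gene body levels in WT normoxia, with means of 5.44 ± 0.943 and 4.65 ± 1.56 RPKM (SD, n = 2), and their libraries overlapped. PER1 followed at 3.10 ± 0.271 RPKM, then CLOCK and PER2, whose libraries overlapped at means of 2.15 and 2.13 RPKM, CRY2 at 1.55 RPKM and BHLHE41 at 0.822 RPKM. PER3, CRY1 and ARNTL were the lowest, at 0.552, 0.537 and 0.532 RPKM, and were not separated from each other. In WT hypoxia BHLHE40 stood first at 42.1 ± 21.0 RPKM, ahead of NR1D1 at 9.62 RPKM and PER1 at 6.86 RPKM without overlap, and BHLHE41, at 2.76 RPKM, overlapped PER2 and CLOCK. In HIF1A-/- hypoxia NR1D1 and BHLHE40 shared the top, with overlapping libraries and means of 13.1 and 13.0 RPKM.

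**Figure D1:**
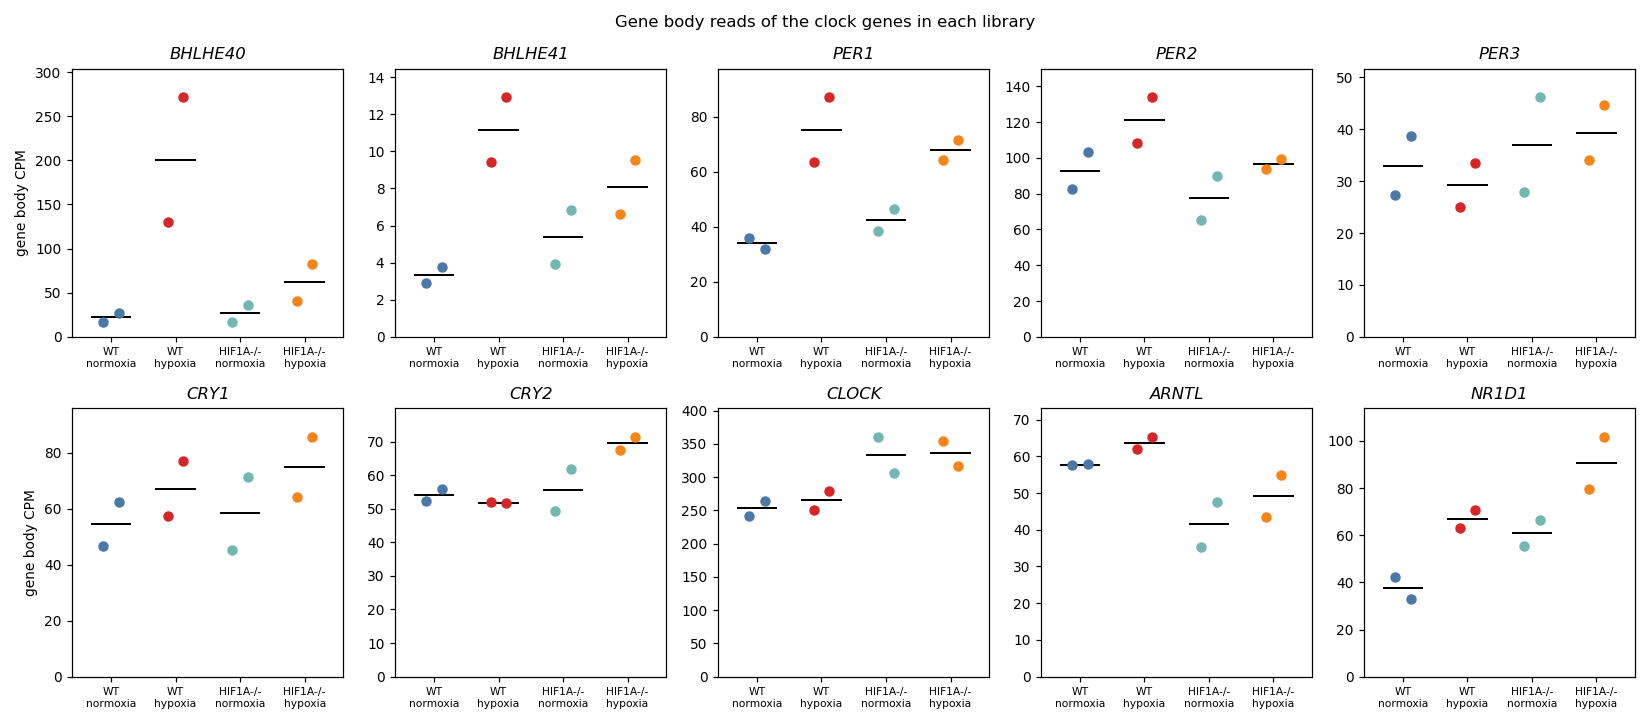
Gene body reads of the 10 genes as CPM of each library's gene body total (vertical axis, linear, from 0, with a scale of its own for each gene) in the 4 groups. Each point is 1 library, with replicate 1 on the left, and the line is the mean of 2 libraries; BHLHE40 reached 130.0 and 271 CPM in WT hypoxia against 40.8 and 83.1 CPM in HIF1A-/- hypoxia.

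The first comparison asked which clock genes responded to 90 min of hypoxia in WT cells. BHLHE40 and PER1 rose in their gene bodies, BHLHE41 and NR1D1 were higher in both hypoxic libraries than in both normoxic ones, and the log2 fold changes of the other members lay between -0.20 and 0.35. With edgeR's quasi-likelihood test and Benjamini-Hochberg adjustment at 10% FDR, 2 of 10 members were called, both higher, against 0.431% of all gene bodies tested (72 of 16686). With the replicate number as a block, 4 of 10 were called, all higher, against 5.51% of all gene bodies. The median log2 fold change of the members was 0.31, and that of all gene bodies tested was -0.02. In bulk libraries a larger share of cells transcribing a gene and more polymerases per cell cannot be told apart.

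BHLHE40, an E-box repressor, had 16.9 and 27.4 CPM in WT normoxia and 130.0 and 271 CPM in WT hypoxia, from 350 and 497 reads to 2470 and 6412 reads. Both hypoxic libraries were far above both normoxic ones, and within either group replicate 2 was the higher. Its log2 fold change was 3.15 (SE 0.50), or 8.87-fold, with an adjusted p of 0.0708 by edgeR's quasi-likelihood test, and 3.10 (SE 0.11) with an adjusted p of 1.65e-05 with the replicate block. Within replicate pairs the log2 difference was 2.94 and 3.31. The call was lost without WT normoxia replicate 1 (adjusted p = 0.875 by edgeR), WT normoxia replicate 2 (0.536) or WT hypoxia replicate 2 (0.466), with log2 fold changes of 2.85, 3.52 and 2.55. BHLHE41, its closest paralog, was transcribed at a lower level, with 2.90 and 3.75 CPM in WT normoxia and 9.42 and 12.9 CPM in WT hypoxia. The groups did not overlap, and the log2 fold change of 1.72 (SE 0.33) missed the threshold in edgeR without a block (adjusted p = 0.156) and passed it with the block (adjusted p = 0.00302).

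PER1, a repressor of CLOCK and ARNTL that is also known as an immediate early gene, had 36.1 and 31.9 CPM in WT normoxia and 63.4 and 87.1 CPM in WT hypoxia. The groups were separate, and the difference was larger in pair 2 (1.45 on the log2 scale) than in pair 1 (0.81). Its log2 fold change was 1.11 (SE 0.18), or 2.16-fold, with an adjusted p of 0.0708 by edgeR and 0.00829 with the block. The PER1 call was lost without WT normoxia replicate 1 (adjusted p = 0.509 by edgeR), WT normoxia replicate 2 (0.702), WT hypoxia replicate 2 (0.509), or either HIF1A-/- hypoxia replicate (0.108 and 0.106), and when edgeR was fitted to the WT libraries alone (0.122); its log2 fold change stayed between 0.89 and 1.32 when a library was left out. PER2, the second period gene, had 82.5 and 103 CPM in normoxia and 108 and 134 CPM in hypoxia, without overlap, and was not called (log2 fold change 0.35, SE 0.17, adjusted p = 0.897 by edgeR). PER3, the third, had 27.3 and 38.6 CPM in normoxia and 24.96 and 33.5 CPM in hypoxia, so that its groups overlapped, with a log2 fold change of -0.20 (SE 0.26).

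The cryptochromes, which form the repressor of the loop together with the PER proteins, differed little. CRY1 had 46.6 and 62.4 CPM in WT normoxia and 57.3 and 77.0 CPM in WT hypoxia, with overlapping groups and a log2 fold change of 0.27 (SE 0.24). CRY2 had 52.4 and 55.9 CPM in normoxia and 51.9 and 51.6 CPM in hypoxia, with a log2 fold change of -0.10 (SE 0.13). The activators were near 0 as well. CLOCK had 242 and 264 CPM in normoxia and 251 and 279 CPM in hypoxia (log2 fold change 0.03, SE 0.16), and ARNTL had 57.7 and 57.8 CPM in normoxia and 62.0 and 65.2 CPM in hypoxia (log2 fold change 0.11, SE 0.16). NR1D1, the nuclear receptor that represses ARNTL, had 42.4 and 33.2 CPM in normoxia and 62.9 and 70.7 CPM in hypoxia. Its groups did not overlap, and the log2 fold change of 0.79 (SE 0.17) was not called in edgeR without a block (adjusted p = 0.271) and was called with the block (adjusted p = 0.0421). In all, the gene body libraries of WT hypoxia lay wholly above those of WT normoxia for 6 of 10 members and wholly below for CRY2, where 19.8% and 17.3% of all gene bodies tested did so.

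**Figure D2:**
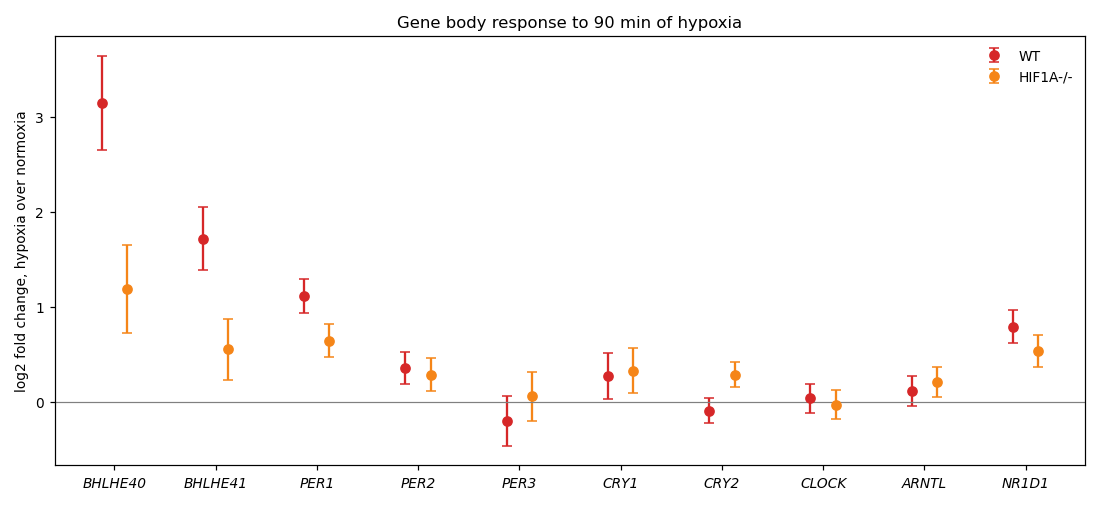
Log2 fold change of gene body reads, hypoxia over normoxia, for each gene in WT (red) and HIF1A-/- cells (orange), from the edgeR fit of 8 libraries without a replicate block; bars are 1 standard error. BHLHE40 was at 3.15 in WT and 1.19 in HIF1A-/- cells, PER1 at 1.11 and 0.64, and CLOCK at 0.03 and -0.03.

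The second comparison asked whether the same genes responded to hypoxia without HIF1A. No member was called in HIF1A-/- cells by edgeR, where 0% of gene bodies were called in all, although 3 of 10 members had an unadjusted p under 0.05, all of them higher in hypoxia, against 2.08% of all gene bodies in either direction; DESeq2 called 0 members and 8 gene bodies. With the replicate block 1 of 10 members was called, against 0.036% of all gene bodies. That member was BHLHE40, which had 17.3 and 35.6 CPM in HIF1A-/- normoxia and 40.8 and 83.1 CPM in HIF1A-/- hypoxia. The groups did not overlap, and the log2 difference was 1.24 in pair 1 and 1.22 in pair 2. Its log2 fold change was 1.19 (SE 0.47), or 2.28-fold, with an adjusted p of 1 by edgeR and of 0.0257 with the block (SE 0.11).

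PER1 had 38.5 and 46.4 CPM in HIF1A-/- normoxia and 64.4 and 71.6 CPM in HIF1A-/- hypoxia, with a log2 fold change of 0.64 (SE 0.17). NR1D1 had 55.2 and 66.5 CPM in normoxia and 79.8 and 101.6 CPM in hypoxia, with a log2 fold change of 0.53 (SE 0.17). In both genes the hypoxic libraries lay above the normoxic ones, with adjusted p of 1 by edgeR, and of 0.223 for PER1 and 0.308 for NR1D1 with the block. BHLHE41 had 3.91 and 6.86 CPM in normoxia and 6.64 and 9.52 CPM in hypoxia, and its groups overlapped (log2 fold change 0.55, SE 0.32). The remaining log2 fold changes ran from -0.03 for CLOCK to 0.33 for CRY1, with PER2 at 0.29, CRY2 at 0.28, ARNTL at 0.21 and PER3 at 0.06. For PER2 and CRY2 too, the hypoxic libraries lay wholly above the normoxic ones, as for BHLHE40, PER1 and NR1D1. Of all gene bodies tested, 14.4% lay wholly above in HIF1A-/- hypoxia and 9.15% wholly below. The median of the members was 0.31 and that of all gene bodies was 0.00.

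The difference between the responses was tested as an interaction, the WT log2 fold change minus that of HIF1A-/- cells. It was largest for BHLHE40 at 1.96 (SE 0.66), followed by BHLHE41 at 1.17 (SE 0.46) and PER1 at 0.47 (SE 0.25). None of the 10 members was called by edgeR without a block, where 0.0539% of gene bodies were called. Of the members, 2 of 10 had an unadjusted p under 0.05, against 1.36% of all gene bodies, and DESeq2 called 0 members and 68 gene bodies in all. With the block BHLHE40 alone was called, at 1.91 (SE 0.15, adjusted p = 0.00287), against 0.384% of all gene bodies. BHLHE41 had an adjusted p of 0.298 with the block and PER1 of 0.898, so a smaller response of these 2 genes in HIF1A-/- cells was not established. For NR1D1 the interaction was 0.25 (SE 0.24). It was 0.07 for PER2, 0.07 for CLOCK, -0.06 for CRY1, -0.10 for ARNTL, -0.26 for PER3 and -0.38 for CRY2.

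The genotypes were then compared at the same oxygen level. In normoxia 0 of 10 members were called by edgeR, against 1.78% of all gene bodies. An unadjusted p under 0.05 was found for 3 members and for 9.002% of all gene bodies, and DESeq2 called NR1D1 among 630 gene bodies. With the block 3 of 10 were called, against 10.3% of all gene bodies. ARNTL was lower in HIF1A-/- cells, at 35.2 and 47.7 CPM against 57.7 and 57.8 CPM in WT, with a log2 fold change of -0.49 (SE 0.16; adjusted p = 0.323 by edgeR and 0.0389 with the block). NR1D1 was higher, at 55.2 and 66.5 CPM against 42.4 and 33.2 CPM, with a log2 fold change of 0.68 (SE 0.17; adjusted p = 0.17 by edgeR and 0.0351 with the block). BHLHE41 was higher by 0.68 on the log2 scale (SE 0.33; adjusted p = 0.639 by edgeR and 0.0887 with the block). CLOCK, at 360.1 and 306 CPM against 242 and 264 CPM, was separate between the genotypes and not called (log2 fold change 0.40, SE 0.16; adjusted p = 0.118 with the block). BHLHE40 differed by 0.24 (SE 0.47), with overlapping libraries. The log2 fold change was 0.32 for PER1, 0.16 for PER3, 0.09 for CRY1, 0.03 for CRY2 and -0.27 for PER2, none of them called in either fit.

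In hypoxia 0 of 10 members were called between the genotypes by edgeR without a block, against 4.26% of all gene bodies. An unadjusted p under 0.05 was found for 4 members and for 15.7% of all gene bodies, and DESeq2 called BHLHE40 and CRY2 among 1311 gene bodies. With the block 7 of 10 were called, against 28.2% of all gene bodies. BHLHE40 was lower in HIF1A-/- cells, with a log2 fold change of -1.72 (SE 0.47; adjusted p = 0.123 by edgeR and 4.83e-05 with the block). The lowest WT hypoxia library, at 130.0 CPM, was above the highest HIF1A-/- hypoxia library, at 83.1 CPM. edgeR called this difference without HIF1A-/- normoxia replicate 1 or replicate 2, and in the fit to the 4 hypoxic libraries alone. The other members called with the block were CRY2 (log2 fold change 0.41, adjusted p = 0.0244), PER3 (0.42, 0.0351) and NR1D1 (0.42, 0.0774), which were higher in HIF1A-/- cells, and ARNTL (-0.39, 0.0437), PER2 (-0.32, 0.0636) and BHLHE41 (-0.48, 0.0839), which were lower. CLOCK (0.33), CRY1 (0.15) and PER1 (-0.15) were not called in either fit. ARNTL and NR1D1 differed in the same direction in normoxia. CRY2 had 67.6 and 71.3 CPM in HIF1A-/- hypoxia against 51.9 and 51.6 CPM in WT hypoxia.

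**Figure D3:**
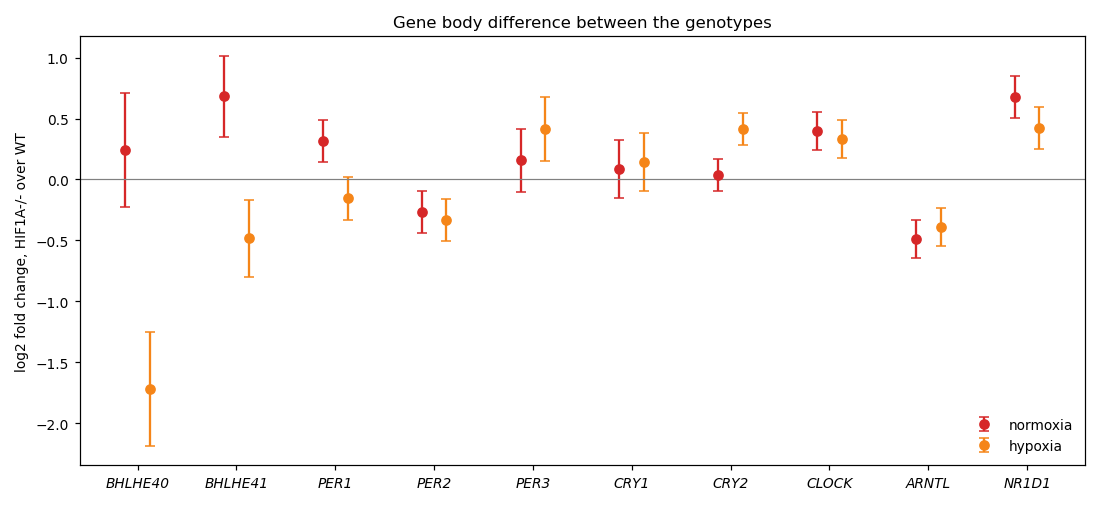
Log2 fold change of gene body reads, HIF1A-/- over WT, for each gene in normoxia (red) and hypoxia (orange), from the edgeR fit without a replicate block; bars are 1 standard error. BHLHE40 was at 0.24 in normoxia and -1.72 in hypoxia, ARNTL at -0.49 and -0.39, and NR1D1 at 0.68 and 0.43.

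Reads in the 551 bp TSS region, which hold polymerases that have initiated and often pause near the promoter, were tested in the same way. In WT hypoxia 0 of 10 members were called by edgeR, against 0.046% of all TSS regions tested. An unadjusted p under 0.05 was found for 4 members and for 4.02% of all TSS regions, and DESeq2 called BHLHE40 among 15 regions. With the block 2 of 10 were called, against 1.01% of all TSS regions. BHLHE40 had 93.8 and 111 TSS CPM in WT normoxia and 198 and 307 TSS CPM in WT hypoxia, without overlap. Its TSS log2 fold change was 1.34 (SE 0.25; adjusted p = 0.277 by edgeR and 3.49e-06 with the block). NR1D1 had 131 and 145 TSS CPM in normoxia and 179 and 229 TSS CPM in hypoxia, with a log2 fold change of 0.60 (SE 0.19; adjusted p = 0.922 by edgeR and 0.0311 with the block). PER1 and BHLHE41 were higher in both hypoxic libraries, by 0.49 (SE 0.16) and 0.79 (SE 0.35), and were not called in either fit. Nor were CRY1 (0.06), CRY2 (0.05), PER2 (-0.27), ARNTL (-0.43), PER3 (-0.63) and CLOCK (-0.65). The TSS libraries of WT hypoxia lay wholly above those of WT normoxia for BHLHE40, BHLHE41, PER1 and NR1D1. They lay wholly below for PER3 and CLOCK. Of all TSS regions tested, 15.3% lay wholly above and 19.5% wholly below.

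In HIF1A-/- cells edgeR called 0% of TSS regions in hypoxia and so none of the members, 3 of which had an unadjusted p under 0.05 (0.887% of all TSS regions), and DESeq2 called none; with the block BHLHE40 was the 1 gene called of all TSS regions, or 0.00657%. It had 67.5 and 114 TSS CPM in HIF1A-/- normoxia and 143 and 177 TSS CPM in HIF1A-/- hypoxia, with a log2 fold change of 0.81 (SE 0.26; adjusted p = 1 by edgeR and 0.0769 with the block). The other TSS log2 fold changes in HIF1A-/- cells were 0.54 for BHLHE41, 0.49 for NR1D1, 0.43 for PER1, 0.38 for CRY1, 0.19 for ARNTL, 0.10 for PER2, 0.08 for CRY2, -0.30 for CLOCK and -0.48 for PER3. For the TSS interaction no member was called without a block (0.00657% of TSS regions), with it (0.046%) or by DESeq2. Without the block 0 members had an unadjusted p under 0.05, against 1.18% of all TSS regions. The TSS interaction was 0.53 (SE 0.36) for BHLHE40. It was 0.25 for BHLHE41, 0.11 for NR1D1, 0.06 for PER1, -0.03 for CRY2, -0.16 for PER3, -0.33 for CRY1, -0.35 for CLOCK, -0.37 for PER2 and -0.62 for ARNTL.

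Between the genotypes no member's TSS region was called by edgeR without a block or by DESeq2. In normoxia edgeR called 0.657% of TSS regions, and with the block 4.29% and again 0 members. There 0 members had an unadjusted p under 0.05 without the block, against 7.99% of all TSS regions. In hypoxia edgeR called 1.1%, and 1 member had an unadjusted p under 0.05, against 13.7% of all TSS regions. With the block BHLHE40 was called in hypoxia, at -0.66 (SE 0.14, adjusted p = 0.00302), against 14.4% of all TSS regions. The other TSS log2 fold changes between the genotypes ran from -0.74 (ARNTL) to 0.55 (PER3) in normoxia, with BHLHE41 at 0.54, NR1D1 at 0.31, PER1 at 0.27, CLOCK at 0.04, CRY2 at -0.05, BHLHE40 at -0.15, PER2 at -0.24 and CRY1 at -0.25. In hypoxia they ran from -0.12 (ARNTL) to 0.71 (PER3), with CLOCK at 0.39, BHLHE41 at 0.29, PER1 at 0.20, NR1D1 at 0.20, PER2 at 0.13, CRY1 at 0.07 and CRY2 at -0.02. The HIF1A-/- libraries with the lowest TSS share were replicate 1, and the part of this in the genotype comparison of TSS regions was not tested.

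The pausing index is the density in the TSS region over that in the gene body. Each density is CPM per base, with CPM taken from that region's own total in the library. On this scale the index describes how polymerases are divided between the promoter and the gene. The 2 totals differ in each library, so its values are not ratios of raw read densities. For BHLHE40 the WT libraries gave 48.0 and 35.1 under normoxia against 13.2 and 9.79 under hypoxia, while HIF1A-/- libraries gave 33.8 and 27.7 under normoxia, then 30.3 and 18.5 under hypoxia. The WT groups were separate and the HIF1A-/- groups overlapped. The WT change was -1.79 on the log2 scale (SE 0.25, adjusted p = 0.00292 by edgeR). BHLHE40 was thus the 1 member of 10 called, against 0.193% of genes tested. With 1 total per library for both regions its change was -1.61, closer to the threshold (adjusted p = 0.0935 by edgeR). With the block and separate totals it was again the 1 member called, against 0.483%. Without WT normoxia replicate 1 or WT hypoxia replicate 2 the adjusted p rose to 0.115 and 0.112, with changes of -1.59 and -1.61. In HIF1A-/- cells the change for BHLHE40 was -0.34 (SE 0.25). There edgeR called 0% of genes with or without the block, and DESeq2 called 0 members. Without the block 0 members had an unadjusted p under 0.05, against 1.58% of genes tested. The interaction for BHLHE40 was -1.46 (SE 0.35), not called by edgeR without a block (adjusted p = 0.583; 0.0207% of genes; 1 member at an unadjusted p under 0.05, against 1.82% of genes; 0 by DESeq2) and called with it, at -1.44 (SE 0.24, adjusted p = 0.0137), against 0.145% of genes.

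Among the other members the pausing index in WT cells changed by -0.93 (SE 0.43) for BHLHE41, -0.69 (SE 0.27) for CLOCK, -0.62 (SE 0.21) for PER1, -0.59 (SE 0.23) for PER2, -0.52 (SE 0.34) for ARNTL, -0.46 (SE 0.47) for PER3, -0.21 (SE 0.23) for NR1D1, -0.18 (SE 0.27) for CRY1 and 0.15 (SE 0.23) for CRY2, none of them called. Both hypoxic WT libraries lay below both normoxic ones in 5 of 10 members (BHLHE40, BHLHE41, PER1, PER2 and CLOCK) and 20.6% of genes tested. Of all genes tested, 0.193% were called in either direction. In PER1 the index was 39.4 and 41.6 in WT normoxia and 28.7 and 22.4 in WT hypoxia, whereas NR1D1 had overlapping values of 39.0 and 54.9 under normoxia against 35.9 and 40.9 under hypoxia. In HIF1A-/- cells the changes were 0.17 for CRY1, 0.00 for ARNTL, -0.02 for BHLHE41, -0.02 for NR1D1, -0.18 for PER2, -0.21 for CRY2, -0.21 for PER1, -0.24 for CLOCK and -0.56 for PER3. Both hypoxic HIF1A-/- libraries lay below both normoxic ones for PER1, PER2 and CLOCK, as for 2170 of 14469 genes. The HIF1A-/- groups of the other members overlapped. The interaction was 0.36 for CRY2, 0.10 for PER3, -0.18 for NR1D1, -0.35 for CRY1, -0.40 for PER1, -0.41 for PER2, -0.45 for CLOCK, -0.52 for ARNTL and -0.91 for BHLHE41, none of them called in either fit. The median change of the members was -0.55 in WT and -0.19 in HIF1A-/- cells, against 0.01 and 0.00 over all genes tested. Scaling within each region holds the all-gene median near 0, here as in gene bodies. It therefore does not show that other genes were unchanged. CRY2 had the highest index of the members, with means of 192 to 258 in the 4 groups, and BHLHE41 in WT hypoxia had the lowest mean, at 7.94.

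**Figure D4:**
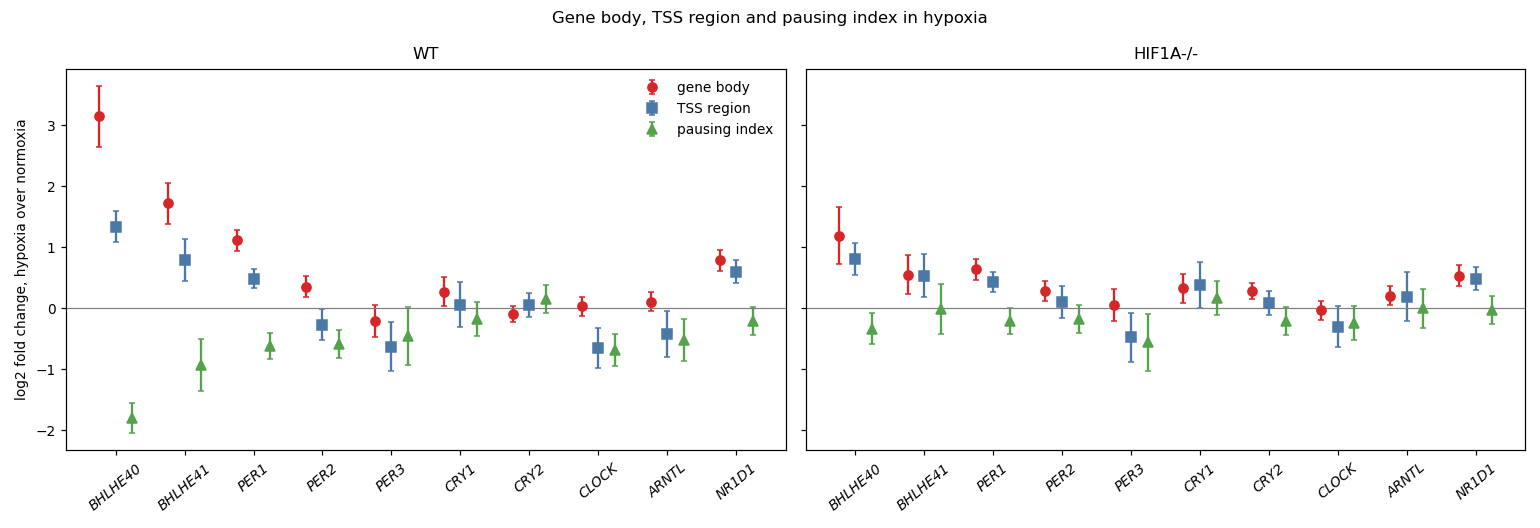
Log2 fold change in hypoxia over normoxia of gene body reads (red circles), TSS region reads (blue squares) and the pausing index (green triangles) for each gene in WT (left) and HIF1A-/- cells (right), from edgeR fits without a replicate block; bars are 1 standard error. For BHLHE40 in WT cells the gene body rose by 3.15, the TSS region was at 1.34 and the pausing index at -1.79.

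Of 21 further clock genes (other activators and nuclear receptors, output factors, kinases and ubiquitin ligase subunits), 18 had gene bodies that passed the filter. RORB and CIART were below it, and CSNK1E, a PER kinase, was listed at 0 gene body reads in all 8 libraries. Its gene body lies wholly inside that of another row on the same strand, LOC400927-CSNK1E, and its TSS region had 161 to 309 reads per library, so this 0 does not measure its transcription. In WT hypoxia 0 of the 18 were called by edgeR, against 0.431% of all gene bodies, with a median log2 fold change of 0.03. An unadjusted p under 0.05 was found for 1 of them, which was higher, and for 4.61% of all gene bodies. In HIF1A-/- hypoxia 0 were called, against 0% of all gene bodies. There 1 had an unadjusted p under 0.05 and was lower, against 2.08% of all gene bodies. By edgeR without a block, the 1 gene of the 18 called in any gene body comparison was NFIL3, a D-box repressor, which was lower in HIF1A-/- than in WT hypoxia, where 4.26% of all gene bodies were called. It had 40.7 and 38.6 CPM in WT normoxia, 64.2 and 81.4 CPM in WT hypoxia, 25.4 and 24.8 CPM in HIF1A-/- normoxia, and 24.8 and 29.0 CPM in HIF1A-/- hypoxia. Both WT hypoxia libraries were above all other libraries. Its log2 fold change between the genotypes in hypoxia was -1.45 (SE 0.16, adjusted p = 0.00465 by edgeR). Its WT response of 0.84 (SE 0.16) was called by edgeR with the block (adjusted p = 0.0174) and not without it (adjusted p = 0.13). The NFIL3 interaction was 0.79 (SE 0.22) without the block. This interaction was not called in either fit (adjusted p = 0.336 by edgeR with the block).

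Between the genotypes the block added further calls among these 18 genes. In normoxia 2 of 18 were called, against 10.3% of all gene bodies, both lower in HIF1A-/- cells: NFIL3 at -0.66 (adjusted p = 0.023 by edgeR with the block) and ARNTL2, an ARNTL paralog, at -0.50 (adjusted p = 0.0225). In hypoxia 5 of 18 were called, against 28.2% of all gene bodies. NPAS2, a CLOCK paralog, was at -0.42 (adjusted p = 0.0125 by edgeR with the block), NOCT, a rhythmic output gene, at -0.33 (0.0875), ARNTL2 at -0.32 (0.0561) and NFIL3 at -1.45 (0.000333). The PER kinase CSNK1D was higher, at 0.26 (0.0627). At either oxygen level the number called was near the share over all gene bodies. These counts are therefore not by themselves a result about clock genes.

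The gene bodies whose pattern was most like that of BHLHE40 were sought over the 8 libraries, by the root mean square difference of log2 CPM after centring each gene on its own mean. NDRG1, a hypoxia-inducible gene, was the nearest at 0.40, followed by the noncoding RNA LINC00887 at 0.42, the lipoprotein lipase inhibitor ANGPTL4 at 0.45, the mitophagy receptor BNIP3L at 0.49 and the histone demethylase KDM3A at 0.52. NDRG1 had 54.5 and 79.7 CPM in WT normoxia, 342 and 799 CPM in WT hypoxia, 46.7 and 89.9 CPM in HIF1A-/- normoxia, and 67.2 and 116 CPM in HIF1A-/- hypoxia. LINC00887 was much lower, with 2.27 and 3.20 CPM in WT normoxia and 6.48 and 19.5 CPM in WT hypoxia. Its WT log2 fold change of 2.22 was not called (adjusted p = 0.51 by edgeR without a block). Among the members BHLHE41 was the most like BHLHE40, at rank 43 of 16685 gene bodies with a difference of 0.72, and PER1 was at rank 379. CLOCK was the least like it, at rank 10825.

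A row of the tables lay close to each of 2 members. BHLHE40-AS1, an antisense transcript that starts on the opposite strand with its TSS region overlapping that of BHLHE40, had 35.5 and 49.9 gene body CPM in WT normoxia, 82.6 and 100.9 CPM in WT hypoxia, 26.5 and 37.7 CPM in HIF1A-/- normoxia, and 41.7 and 58.4 CPM in HIF1A-/- hypoxia. Its WT log2 fold change was 1.07 (adjusted p = 0.222 by edgeR and 0.00097 with the block). The libraries are labelled as strand-specific, but whether the counting used strand is not given in the sources used here, so reads of the overlapping TSS regions of BHLHE40 and BHLHE40-AS1 are uncertain; their gene bodies do not overlap. VAMP2, a vesicle fusion gene, has its TSS region 9891 bases from that of PER1 and had a WT log2 fold change of -0.06.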

How the data were processed

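PRO-seq was analysed in 8 libraries of HCT116 cells, assigned to 4 groups of 2 from the sample labels. The values are raw read counts per gene that the authors deposited for a 551 bp TSS region and for a gene body that starts 1001 bases from the TSS, with a single pair of regions per gene, so other start sites of a member are not seen. The submitters' processing notes name HISAT2 2.1.0, SAMtools 1.5 and featureCounts of Subread 1.6.2, and the build GRCh37; the study's methods state alignment without splicing and a filter on mapping quality. These steps are already in the counts. Depth limits precision for members with few reads, such as BHLHE41, and PCR copies are not independent molecules.

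Genes with a CPM above 0.5 in at least 2 libraries were kept. Counts were scaled by TMM and fitted in edgeR 4.0.16 (glmQLFit, glmQLFTest; R 4.3.3) with 4 group means over all 8 libraries, Benjamini-Hochberg adjusted over all genes tested and called at 10% FDR. The standard error is the absolute log2 fold change over the square root of F. Printed CPM and RPKM use each table's own total. For the pausing index, both tables entered 1 fit as 16 columns with a term per library. After group means were removed, libraries with the same replicate number deviated together in 6 of 6 pairs of groups (r across genes 0.484 to 0.790 in gene bodies and 0.216 to 0.519 in TSS regions). Together with the shared numbers in the labels, this was taken as pairing, so values with the number as a block stand beside results whose call they change. Alternatives included DESeq2 1.42.0, other scalings, no filter and leaving out each library. The scripts were tested on simulated data.

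The members and gene lists were chosen with earlier results of these data known. All 10 members are named in every comparison, with HIF1A, further clock genes called in a gene body comparison, the 5 gene bodies most like BHLHE40, and rows within 10 kb of a member's TSS region. Motifs were searched in the 250 bases before each TSS of the GRCh37 genome.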

Additional observations from a re-analysis of the deposited data

Results flagged for a closer look

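BHLHE40 differed between the genotypes in its response to hypoxia when the replicate number was a block. In the gene body the WT response exceeded the HIF1A-/- response by 1.91 on the log2 scale, and for the pausing index the difference was -1.44. Both were called by edgeR with the block and neither in the fit without it at the same filter; the pausing index difference was also called without the block when low counts were not filtered.

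In 3 further cases both replicate pairs of WT moved one way and both pairs of HIF1A-/- the other, while the interaction was not called by edgeR with or without the block. For the CRY2 gene body the interaction was -0.38, with pair differences of -0.01 and -0.12 in WT and 0.45 and 0.20 in HIF1A-/- cells. For the ARNTL TSS region it was -0.62, on 29 to 80 reads per library, and for the CRY2 pausing index it was 0.36.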

How the results depend on the processing

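The number of members called is given here where it changed, without the share of all features called under each setting. That share moved as well. In gene bodies edgeR called 0.431% without the block and 5.51% with it in WT hypoxia. Between the genotypes in hypoxia it called 4.26% and 28.2%. A change in these counts is therefore not by itself a result about the members. In gene bodies, WT hypoxia called 2 members in edgeR, 4 with DESeq2, 4 with the replicate block, 4 with DESeq2 and the block, 3 with no filter, 1 in the fit to the 4 libraries compared, and 0 to 3 when a library was left out. HIF1A-/- hypoxia gave 1 with the block and 2 with DESeq2 and the block, and the interaction gave 1 with either. HIF1A-/- against WT gave, in normoxia, 1 with DESeq2, 3 with the block and 3 with DESeq2 and the block. In hypoxia it gave 2 with DESeq2, 1 with no filter, 7 with the block, 7 with DESeq2 and the block, 1 with 4 libraries, and 0 to 1 when a library was left out. In TSS regions, WT hypoxia gave 1 with DESeq2, 1 with no filter, 2 with the block, 2 with DESeq2 and the block, 1 with 4 libraries and 0 to 1 when a library was left out. HIF1A-/- hypoxia gave 1 with no filter, 1 with the block and 1 with DESeq2 and the block. The genotypes in hypoxia gave 1 under these and with 4 libraries, and 0 to 1 when a library was left out, as they did in normoxia. For the pausing index, leaving out a library gave 0 to 1 in WT hypoxia, and the interaction gave 1 with no filter and 1 with the block. Of 1840 single values under alternatives, 1767 kept their side of the threshold, 62 were newly called, 11 were no longer called and 0 reversed while called. The cause was not tested. A group left with 1 library was assumed to vary like the others. With 2 libraries per group the spread is poorly known, and BHLHE41 had 60 to 305 gene body reads per library, which limits what its tests can show.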
